A study of Homo sapiens
Mus musculus and Homo sapiens with 2 samples.

Results

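HEK293T, a human embryonic kidney line that carries the SV40 large T antigen, was compared after growth with 4-thiouridine (S4U) and after growth without it, in 455 and 559 cells that had not been exposed to iodoacetamide. S4U is a uridine analog that cells take up and build into RNA as it is made. Iodoacetamide alkylates S4U, and the alkylated base is then read as a base change in the cDNA. Without iodoacetamide the analog sits in the RNA but is not converted, so this pair of groups shows how the counts of cells that took up S4U differed from those of cells that did not, apart from the chemical step.

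The cells came from a sci-fate experiment, in which single fixed cells are barcoded in wells during reverse transcription and their RNA is counted by unique molecule. HEK293T and mouse NIH/3T3 fibroblasts were profiled as 1 mixture of 6307 cells, of which 3006 were called human, and a separate A549 sample was not used. The S4U cells had received 200 µM S4U for the 6 h before harvest. The cells without S4U had no labelling and no chemical step. Another pair of HEK293T groups went through iodoacetamide, 913 cells with S4U and 1025 cells without it. Both pairs had the same S4U dose and time, and paraformaldehyde fixation is given for all cells. The mixture's treatment label lists dexamethasone, but the protocol gives that steroid to A549 only, so no HEK293T group was taken as exposed. The members are all cells of the mixture that the authors called human and put in 1 of the first pair of groups, 1014 cells in all of the 13711 cells of the series.

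The labels name no replicate cultures and each group counts as 1 culture here, so no test between conditions was possible and cells were not used as replicates. Every ratio below is S4U over no S4U in CPM, a gene's counts per 1000000 human counts of its group, and its 95% interval covers counting error only. The ratios have no replicate check. Whether the S4U cells with and without iodoacetamide came from the same culture is not stated, and likewise for the cells without S4U. The 4 groups held no reverse transcription barcode in common, so the treatment and the set of wells cannot be told apart. HEK293T cells made up 30.0% of the called cells in the S4U wells and 34.9% in the wells without S4U. In the iodoacetamide wells they made up 68.2% with S4U and 64.7% without, so the mix of lines differed between the pairs.

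Both groups carried marker genes of the line. Of 9 measured markers, 1 was at least 1.5-fold lower with S4U, against 3.83% of all genes tested, and none was higher. It was NEFL, with a log2 ratio of −0.64 that fell short with equal weight per cell (−0.58). The median of the 9 was −0.12, with 3 above 0. With iodoacetamide it was −0.31, with 2 lower, against 5.44% of all genes there. DACH1, a transcription factor gene, stood at 532 CPM in S4U cells and 579 CPM in cells without S4U. LIN28B, which encodes an RNA-binding protein of immature cells, stood at 186 CPM in S4U cells and 187 CPM in cells without it. PAX2, LHX1 and NES had few counts in either group, at most 20 in S4U cells and 42 in cells without S4U. Of 10 fibroblast markers, 5 were at 0 in both groups, and the list summed to 4.87 CPM in S4U cells and 4.52 CPM in cells without S4U. Lung epithelial markers summed to 13.0 CPM in S4U cells and 8.89 CPM in cells without it, and immune and endothelial markers to 3.85 and 2.49 CPM in the same order of groups. Mouse genes took 0.365% of the counts of the S4U cells and 0.428% of those of the cells without S4U.

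S4U cells gave 4931680 human counts and cells without S4U 6414424. The median was 9381 counts per S4U cell (quartiles 6733 and 13469) and 10541 per cell without S4U (quartiles 7129 and 14577). After every cell was thinned to 3000 counts, the median number of genes per cell was 2179 with S4U and 2177 without, and 21 S4U cells and 22 cells without S4U were too shallow to be included. Genes per cell were therefore close to equal at equal depth. With iodoacetamide the medians were 6673 counts per S4U cell and 8519 per cell without S4U.

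The S4U cells held more intron reads. Intron reads come mostly from RNA that has not been spliced, since introns are removed as the transcript matures. They made up 36.0% of intron plus exon reads in S4U cells (95% interval 36.0 to 36.1%) and 31.3% in cells without S4U (31.3 to 31.4%). The median over cells was 35.0% with S4U (quartiles 28.9 and 40.4%) and 29.3% without (quartiles 24.2 and 35.8%), so the cells of both groups overlapped widely. With iodoacetamide the share was 31.7% in S4U cells and 27.9% in cells without S4U, the same direction at lower levels. NIH/3T3 cells of the same wells had 9.52% with S4U and 7.90% without S4U, and 9.38% and 6.68% in the iodoacetamide wells. The share was higher with S4U in 4 of 4 pairs of groups, but the lines shared wells, so these pairs are not separate repeats.

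**Figure D1:**
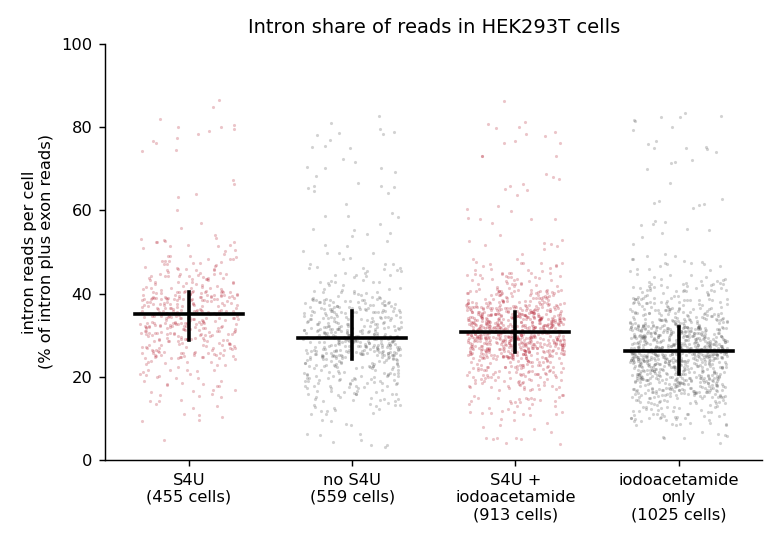
Intron reads as a percent of intron plus exon reads, 1 point per HEK293T cell, in the 4 groups. Horizontal bars are medians and vertical bars run between the quartiles. The median is 35.0% with S4U and 29.3% without it, and 30.8% and 26.3% in the pair with iodoacetamide.

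Calls of new RNA were rare without iodoacetamide. The authors' matrix of newly made RNA held 1.02% of the counts of the S4U cells (95% interval 1.01 to 1.03%) and 0.888% of those of the cells without S4U (0.880 to 0.895%). These intervals cover counting error only, with 1 culture a group, so they do not test the difference. The share was also higher with S4U among intron reads, at 1.44% against 1.29%, and among exon reads, at 0.791% against 0.707%. In NIH/3T3 the shares were 0.785% with S4U and 0.728% without. With iodoacetamide the same matrix called 54.7% of the counts of S4U cells new and 1.24% of those of cells without S4U.

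Most genes differed little between S4U cells and cells without S4U. Of 11041 genes with at least 100 counts in the groups together, 408 (3.7%) were at least 1.5-fold higher with S4U and 423 (3.83%) at least 1.5-fold lower, a log2 ratio past 0.585 either way. The median log2 ratio over all of them was 0.012, and 51.7% were above 0. Scaling shifted this split: with TMM factors 313 were higher and 610 lower, and with median-of-ratios size factors 323 were higher and 573 lower. Of 7945 genes with at least 300 counts, where counting error is smaller, 129 (1.62%) were higher and 194 (2.44%) were lower, and in the pair with iodoacetamide 99 (1.25%) and 362 (4.56%).

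The pair of groups with iodoacetamide, which shares no cell or reverse transcription barcode with this pair, gave like ratios. There 357 of the 11041 genes (3.23%) were at least 1.5-fold higher with S4U and 601 (5.44%) lower. Genes past the fold in the same direction in both pairs numbered 204 among the higher (50.0% of those without iodoacetamide and 57.1% of those with it) and 202 among the lower (47.8% and 33.6%). Past the fold in opposite directions were 2 genes, both of them lower without iodoacetamide. Over the 7945 genes Pearson's r between the log2 ratios of the pairs was 0.75 and Spearman's rho 0.72, a description across genes of 1 line, since genes are not independent replicates. NIH/3T3 of the same wells without iodoacetamide had 189 of 9609 mouse genes higher (1.97%) and 68 lower (0.708%).

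**Figure D2:**
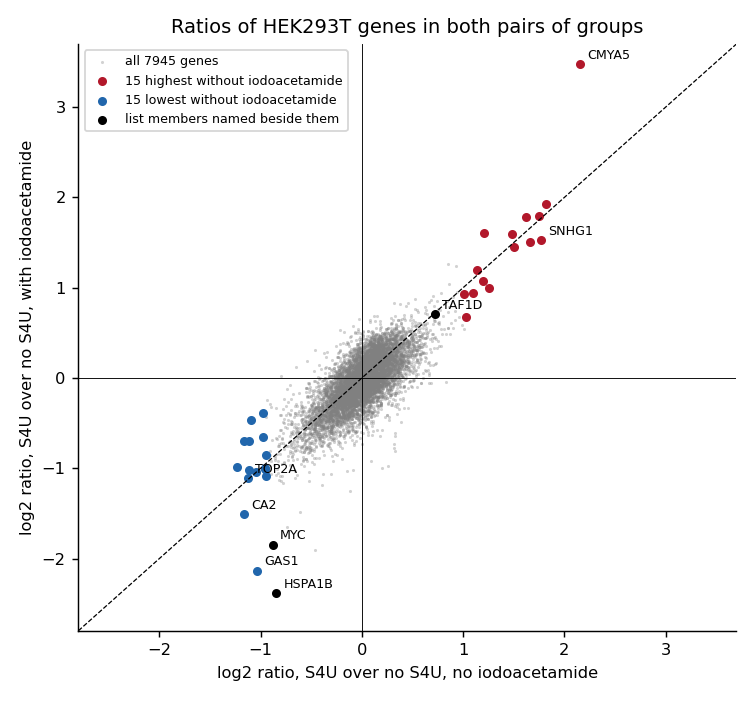
Log2 ratio of CPM, S4U over no S4U, without iodoacetamide (x axis) and with it (y axis), for 7945 HEK293T genes. Grey points are all genes, red and blue points the 15 highest and 15 lowest ratios without iodoacetamide, and black points HSPA1B, MYC and TAF1D. The points follow the dashed line of equal ratios, with HSPA1B, GAS1 and MYC lower in the pair with iodoacetamide.

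Among genes with at least 300 counts, the 15 highest ratios ran from 2.02-fold to 4.45-fold. The interval of each of the 15 lay wholly past 1.5-fold, and each was also past 1.5-fold in the pair with iodoacetamide. The list was picked for its ratios, so these folds are a description. It held long noncoding RNAs, host genes of small nucleolar RNAs and protein-coding genes with a close neighbour on the same strand.

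CMYA5, a gene known for a muscle protein, had the highest ratio. It stood at 51.3 CPM in S4U cells (253 counts) and 11.5 CPM in cells without S4U (74 counts), a log2 ratio of 2.15 (1.77 to 2.55). In the pair with iodoacetamide it stood at 53.2 and 4.78 CPM in the same order, a log2 ratio of 3.48. At equal depth, 14.5% of S4U cells and 2.05% of cells without S4U held at least 1 count of it. In the annotation PAPD4 ends within 10 kb upstream of CMYA5 on the same strand. PAPD4 itself stood at 161 CPM with S4U and 124 CPM without S4U, a log2 ratio of 0.38 that did not pass 1.5-fold.

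SNHG1, which hosts small nucleolar RNAs (snoRNAs) in its introns, stood at 129 CPM in S4U cells (634 counts) and 37.7 CPM in cells without S4U (242 counts). Its log2 ratio was 1.77 (1.55 to 1.99), and at equal depth 30.7% of S4U cells and 9.87% of cells without S4U held a count of it. With iodoacetamide it stood at 121 CPM with S4U and 42.1 CPM without. Its mouse counterpart in NIH/3T3 stood at 75.7 CPM with S4U and 42.4 CPM without, a log2 ratio of 0.84. SNHG1 was thus past 1.5-fold in all of the pairs named here. SNHG15, another snoRNA host, had 72.8 CPM with S4U and 30.4 CPM without, a log2 ratio of 1.26 (1.00 to 1.52), while its mouse counterpart had a log2 ratio of 0.10 without iodoacetamide and 0.72 with it.

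RPS10-NUDT3 is annotated as a transcript that reads through from the ribosomal protein gene RPS10 into NUDT3. It stood at 262 CPM in S4U cells (1294 counts) and 77.9 CPM in cells without S4U (500 counts), a log2 ratio of 1.75 (1.60 to 1.90). RPS10 alone had a log2 ratio of 0.14 and NUDT3 alone 0.20, both short of 1.5-fold. The sources used here do not say how the counting assigned reads to overlapping genes, so the split of reads among these 3 entries is uncertain.

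P2RY11 encodes a purinergic receptor and lies on the same strand as PPAN, a ribosome biogenesis gene. It stood at 45.4 CPM with S4U and 16.2 CPM without, a log2 ratio of 1.49 (1.14 to 1.84), while PPAN had 0.13. KCNJ14, a potassium channel gene that overlaps GRWD1, stood at 42.6 CPM with S4U and 19.3 CPM without, a log2 ratio of 1.14, while GRWD1 had 0.24. COLQ, which encodes the collagen tail of acetylcholinesterase, stood at 43.8 and 15.4 CPM in the same order, a 2.84-fold ratio, and overlaps EAF1-AS1, whose log2 ratio of 0.61 rested on 54 counts with S4U and 46 without.

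MSH4, a meiotic DNA mismatch repair homolog, stood at 55.6 CPM with S4U and 24.2 CPM without, a 2.30-fold ratio. The genes annotated just upstream of it, ACADM and RABGGTB, had log2 ratios of −0.13 and −0.08. RBM4, a gene for a splicing regulator, stood at 83.3 CPM with S4U and 38.8 CPM without, a 2.15-fold ratio, and the log2 ratio of its read-through entry RBM14-RBM4 was 0.48. CREBZF, which encodes a bZIP transcription factor, stood at 73.8 CPM with S4U and 36.2 CPM without, a log2 ratio of 1.03, and it has no such neighbour in the annotation.

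The other 5 genes of this set, among them RP11-22P4.1, RP11-1114A5.4, AP000320.7 and AC027763.2, are known by clone names, with log2 ratios between 1.01 and 1.82. RP11-1114A5.4 begins within 10 kb downstream of RBMX, an RNA-binding protein gene whose own log2 ratio was 0.07. AP000320.7 overlaps MRPS6, a mitochondrial ribosomal protein gene with a log2 ratio of −0.12, and AP000318.2, with 1.39. The remaining gene, ENSG00000264545.1, overlaps MTAP, whose log2 ratio was 0.21, and stood at 49.3 CPM with S4U and 15.6 CPM without. In all, 10 of the 15 genes overlapped or closely followed another gene on the same strand. In NIH/3T3 without iodoacetamide, 4 of the 15 had a measured mouse counterpart, with log2 ratios from 0.10 to 0.84. Of these only 1, that of SNHG1, passed 1.5-fold.

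**Figure D3:**
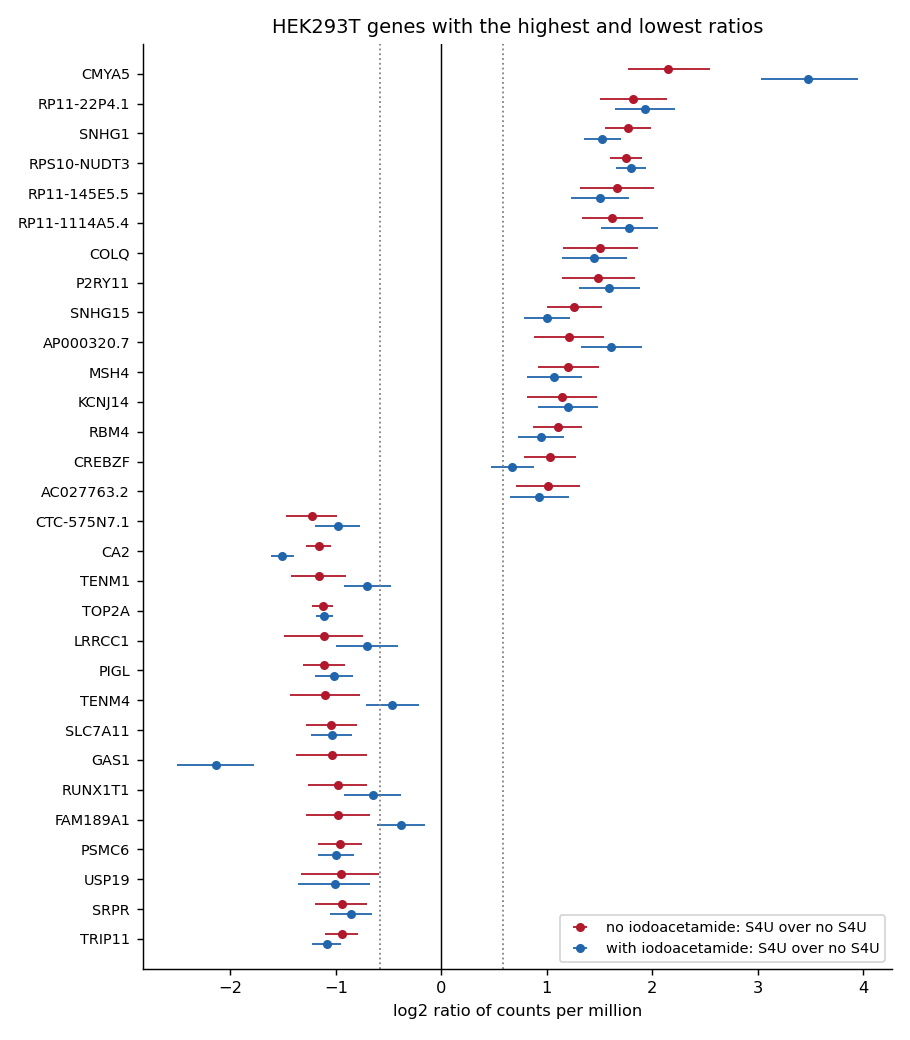
Log2 ratio of CPM, S4U over no S4U, of the 15 genes with the highest and the 15 with the lowest ratio among HEK293T genes with at least 300 counts. Red is the pair without iodoacetamide and blue the pair with it, bars are 95% counting intervals and dotted lines mark 1.5-fold. CMYA5 tops the list at 2.15, CTC-575N7.1 has the lowest ratio at −1.23, and every gene has the same sign in both pairs.

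Such neighbours were more common among all genes that were higher with S4U. Of the higher genes found in the GENCODE annotation, 158 of 392 (40.3%) overlapped another tested gene on the same strand or had one ending within 10 kb upstream. The figure was 55 of 414 (13.3%) for the lower genes and 2049 of 10884 (18.8%) for all genes tested. Overlap on the same strand alone held for 77 of the higher genes (19.6%), 16 of the lower (3.86%) and 6.97% of all. Protein-coding genes made up 71.8% of the higher genes, 92.0% of the lower and 93.0% of all. The longest annotated transcript had a median of 3024 bases among the higher genes, 4493 among the lower and 3799 among all. An upstream neighbour held for 23.0% of the higher genes, 9.66% of the lower and 12.9% of all. Among genes with at least 300 counts these shares were 15.1%, 8.90% and 12.0%, so the upstream excess was smaller there. Same-strand overlap there held for 18.3% of the higher, 3.66% of the lower and 5.94% of all.

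The 15 lowest ratios ran from 0.426 to 0.519, and each interval lay wholly past 1.5-fold. This list too was picked for its ratios, so these folds are a description. In the pair with iodoacetamide 13 of the 15 passed 1.5-fold and the other 2, TENM4 and FAM189A1, had log2 ratios of −0.46 and −0.38. Of the 15, 14 were protein-coding. In NIH/3T3 without iodoacetamide, 11 had a measured mouse counterpart, none of which passed 1.5-fold, with log2 ratios from −0.31 to 0.21. With iodoacetamide the counterpart of RUNX1T1 had −0.79.

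TOP2A encodes topoisomerase II alpha, which untangles DNA in dividing cells. It stood at 231 CPM in S4U cells (1137 counts) and 502 CPM in cells without S4U (3222 counts), a log2 ratio of −1.12 (−1.22 to −1.03). At equal depth 39.4% of S4U cells and 60.5% of cells without S4U held a count of it. With iodoacetamide it stood at 247 CPM with S4U and 533 CPM without, nearly the same pair of levels. CA2, the gene of carbonic anhydrase 2, stood at 154 CPM with S4U (761 counts) and 346 CPM without (2218 counts), a log2 ratio of −1.16 (−1.28 to −1.04), and at 125 and 356 CPM in the iodoacetamide pair.

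SLC7A11, the gene of the cystine and glutamate antiporter, stood at 39.7 CPM with S4U and 81.8 CPM without, a log2 ratio of −1.04 in both pairs. GAS1, a gene for a Hedgehog co-receptor, stood at 21.1 CPM with S4U and 43.2 CPM without, a log2 ratio of −1.03, and at 11.1 and 48.6 CPM with iodoacetamide, a log2 ratio of −2.13. TRIP11, which encodes a Golgi coiled-coil protein, stood at 90.0 CPM with S4U and 173 CPM without, a log2 ratio of −0.95. These genes have no role in common that a list used here records.

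PSMC6, a proteasome ATPase gene, stood at 56.0 CPM with S4U and 109 CPM without, a log2 ratio of −0.96. PIGL, of glycosylphosphatidylinositol anchor synthesis, stood at 55.8 CPM with S4U and 120 CPM without, a log2 ratio of −1.11. SRPR, a signal recognition particle receptor gene, stood at 38.5 CPM with S4U and 74.2 CPM without, a log2 ratio of −0.95, and the deubiquitinase gene USP19 at 17.6 and 34.1 CPM, also −0.95. The rest were the teneurin genes TENM1 (−1.16) and TENM4 (−1.10), the centrosomal gene LRRCC1 (−1.11), the corepressor gene RUNX1T1 (−0.98), FAM189A1 (−0.98) and the antisense transcript CTC-575N7.1 (−1.23).

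The highest list median belonged to the host genes of snoRNAs. Their transcripts carry snoRNAs in introns, and many of the spliced host RNAs are short-lived in cells that are translating. Of 16 with enough counts, 14 had a log2 ratio above 0, 5 were at least 1.5-fold higher against 3.7% of all genes, and none was lower. The median was 0.49, against 0.012 over all genes. Beside SNHG1 and SNHG15 these were GAS5 at 231 CPM with S4U and 137 CPM without (log2 ratio 0.75), ZFAS1 at 122 and 79.2 CPM (0.62), and TAF1D at 309 and 187 CPM (0.72). SNHG16 lay on the other side of 0, at 252 CPM with S4U and 330 CPM without, a log2 ratio of −0.39.

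With iodoacetamide the snoRNA hosts again had a median of 0.49, and 7 of 16 were higher, against 3.23% of all genes there. In NIH/3T3 without iodoacetamide, 12 had a measured mouse counterpart, with a median of 0.34 and 4 past 1.5-fold, against 1.97% of all mouse genes. TMM and size-factor scaling left 4 of the 16 higher, ZFAS1 falling short at 0.56 by either, and a median of at least 0.42. All tested genes with an annotated snoRNA inside, 247 from which these hosts were not taken out, had a median of 0.035. Of them 5 were higher (2.02%) and 8 lower (3.24%), against 3.7% and 3.83% of all genes.

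Cytosolic ribosomal protein genes, whose mRNAs are stable, sat together slightly above 0. Of 79, 75 had a log2 ratio above 0, against 51.7% of all genes, and the median was 0.24 (0.18 with TMM factors, 74 above 0). None passed 1.5-fold either way, against 3.7% of all genes higher and 3.83% lower. After thinning 3 passed it upward. RPS6 stood at 2216 CPM with S4U and 1926 CPM without, a log2 ratio of 0.20 (0.17 to 0.24). RPL22 had the highest ratio of the list, 0.54, and RPL12 the lowest, −0.28. The list's median was 0.41 with iodoacetamide and 0.17 in NIH/3T3. Many of these genes have processed pseudogenes, so their counts may be split with near-identical copies. Nuclear genes of the respiratory chain had a median of 0.13, with 49 of 61 above 0, against the same 51.7%. None was past the fold (1 upward after thinning), against the same 3.7% and 3.83%. Their median was 0.062 with TMM factors, with 43 of 61 above 0, and 0.34 with iodoacetamide.

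Immediate early genes, which are switched on within minutes of a stimulus and have short-lived mRNAs, had the lowest list median, −0.35. Of 15 measured, 4 were at least 1.5-fold lower with S4U against 3.83% of all genes, and none was higher. MYC, a growth regulator, stood at 51.5 CPM in S4U cells (254 counts) and 94.9 CPM in cells without S4U (609 counts), a log2 ratio of −0.88 (−1.10 to −0.67). JUND had a log2 ratio of −0.83, CYR61 −0.70 and ATF3 −0.63, and JUN missed the fold at −0.57. With iodoacetamide 10 of the 15 were lower, against 5.44% of all genes there, and the median was −0.78, with MYC at 25.5 CPM with S4U and 91.5 CPM without, a log2 ratio of −1.85. Weighting every cell alike left 2 of the 15 lower, with ATF3 at −0.25 and CYR61 at −0.55, and thinning put 1 member past the fold upward. In NIH/3T3 the median of 14 was 0.15 and none passed the fold.

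Genes of the integrated stress response, which cells use when translation initiation is curbed, gave 7 of 25 lower with S4U, against 3.83% of all genes, and none higher. The median was −0.13. Beside SLC7A11 and ATF3 these were CEBPB (log2 ratio −0.95), ALDH1L2 (−0.80), DDIT4 (−0.74), PCK2 (−0.72) and CTH (−0.69). ATF4, the transcription factor gene at the centre of the response, stood at 258 CPM with S4U and 253 CPM without, a log2 ratio of 0.02. With iodoacetamide 4 of the 25 were lower, against 5.44% of all genes there, and DDIT4 had −1.65 and CEBPB −1.69 there, while ATF3 had 0.04.

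Of 18 heat shock genes, HSPA1B alone passed the fold, downward, against 3.83% of all genes. It encodes an inducible HSP70 chaperone and stood at 559 CPM in S4U cells (2757 counts) and 1006 CPM in cells without S4U (6451 counts), a log2 ratio of −0.85 (−0.91 to −0.78). With iodoacetamide it stood at 184 CPM with S4U and 958 CPM without, a log2 ratio of −2.38. Its near-identical copy HSPA1A had 2 counts with S4U and 3 without, so reads of both genes may have been counted together. HSP90AA1 and HSP90AB1, the cytosolic HSP90 genes, had log2 ratios of 0.10 and 0.09.

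S-phase genes had a median of −0.12, with 4 of 55 lower, against 3.83% of all genes, and none higher. PCNA, the sliding clamp of DNA replication, stood at 205 CPM with S4U and 334 CPM without, a log2 ratio of −0.71 (−0.81 to −0.60). CDC6 (−0.70), PRIM1 (−0.64) and MCM3 (−0.60) also passed the fold, though PRIM1 had −0.43 after thinning, and the list's highest member was RFC3 at 0.39. TMM scaling gave 8 lower members and size factors 7. Of 64 G2/M genes, 3 were lower, close to the 3.83% of all genes, none was higher, and the median was −0.009. They were TOP2A, the mitotic kinesin gene KIF11 (−0.82) and the spindle gene ASPM (−0.59), which fell short of the fold with equal weights (−0.58) and without the deepest cells (−0.56). TMM scaling, size factors and thinning each gave 9 lower members, and equal weights 5. With iodoacetamide 15 of the 64 were lower, against 5.44% of all genes there, and the median was −0.25.

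Targets of p53, a tumour suppressor that large T antigen binds, had a median of −0.024, with 2 of 16 lower, XPC (−0.79) and CDKN1A (−0.70), against 3.83% of all genes. None was higher, but 2 were after thinning and 1 with equal weights. MDM2 stood at 170 CPM with S4U and 187 CPM without, a log2 ratio of −0.14. In NIH/3T3 of the same wells the median of the 16 was 0.34, with 6 higher against 1.97% of all mouse genes, among them MDM2 at 0.79 and CDKN1A at 0.69. The difference between the lines was not tested.

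Of 50 ribosome biogenesis genes, 2 were higher, TAF1D and POLR1C (0.69), and 3 lower, UTP20 (−0.83), POLR1E (−0.69) and RRP9 (−0.63), near the 3.7% and 3.83% of all genes. TMM scaling gave 7 lower members and size factors 6. The abundant nucleolar genes NCL and NPM1 had log2 ratios of 0.05 and 0.03. Genes of pyrimidine uptake and salvage, through which a uridine analog enters nucleotide pools, were listed together with those of pyrimidine synthesis. The list had a median of −0.081. Of 21 measured genes of this list 1 was lower, against 3.83% of all genes, and none was higher. It was CAD, the gene of the enzyme that begins pyrimidine synthesis (−0.70), at 54.1 CPM with S4U and 88.1 CPM without. After thinning 1 member of the list passed the fold upward, and CAD fell short of the fold at −0.46, as did POLR1E at −0.39.

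Of 29 measured genes that act in RNA polymerase II elongation, 1 was higher and 1 lower, near the 3.7% and 3.83% of all genes. CCNT1, a cyclin of the elongation factor P-TEFb, was higher at 137 CPM with S4U and 80.9 CPM without (0.76). CTR9, of the PAF complex, was lower at 88.2 CPM with S4U and 144 CPM without (−0.71). Of 9 measured nuclear long noncoding RNAs 1 was lower, against 3.83% of all genes, and none was higher. It was NEAT1, at 186 CPM with S4U and 294 CPM without (−0.66, and −1.03 with iodoacetamide), whereas MALAT1 had −0.09.

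**Figure D4:**
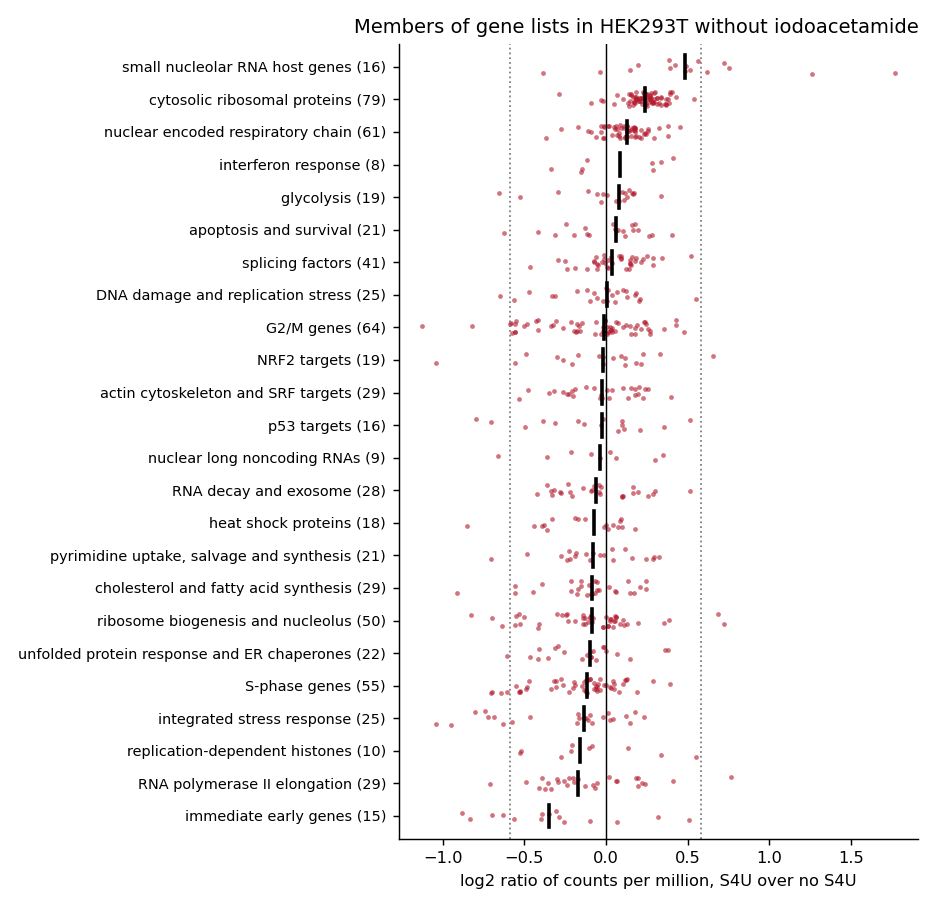
Log2 ratio of CPM, S4U over no S4U, of each measured member of 24 gene lists in HEK293T without iodoacetamide, 1 point per gene. Black bars are list medians, dotted lines mark 1.5-fold and the number of genes is in brackets. The snoRNA host genes have the highest median, 0.49, and the immediate early genes the lowest, −0.35.

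The ratios were also set beside how much of each gene's RNA was new, using the S4U cells with iodoacetamide, which are other cells than those of the main pair. A high share can mean RNA that turns over fast relative to the 6 h of labelling, or a gene with many intron reads. In those cells 80.1% of intron reads and 42.4% of exon reads were called new. Gene counts appear to include intron reads, since S4U cells of the main pair had 4931680 human counts and 3189173 exon reads. Turnover and intron content were not separated here. Among the 5807 genes with at least 300 counts both there and in the main pair, 389 genes with under 20% new counts had a median log2 ratio of 0.13 without iodoacetamide. The 896 genes at 20 to 40% had 0.049, the 985 at 40 to 60% −0.037, the 1859 at 60 to 80% −0.035 and the 1678 above 80% 0.058. The order was therefore not steady without iodoacetamide, and Spearman's rho over the 5807 genes was 0.028. With iodoacetamide the same bins had 0.33, 0.15, −0.042, −0.11 and −0.050 (rho −0.31), but there the new share and the ratio come in part from the same library.

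The spread differed by bin as well. Without iodoacetamide none of the 389 genes with the least new RNA passed 1.5-fold, while 52 of the 1678 genes above 80% (3.10%) were higher and 15 (0.894%) lower. At 60 to 80% 28 were higher (1.51%) and 54 lower (2.90%). The bins were not matched for counts per gene, and ratios of genes with fewer counts spread more by counting error. How far this made the spread differ was not tested. Spearman's rho between the log2 ratio and the length of the longest transcript was −0.18 without iodoacetamide and −0.26 with it, and for the share of U in that transcript 0.015 and −0.19, over 7863 genes.

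**Figure D5:**
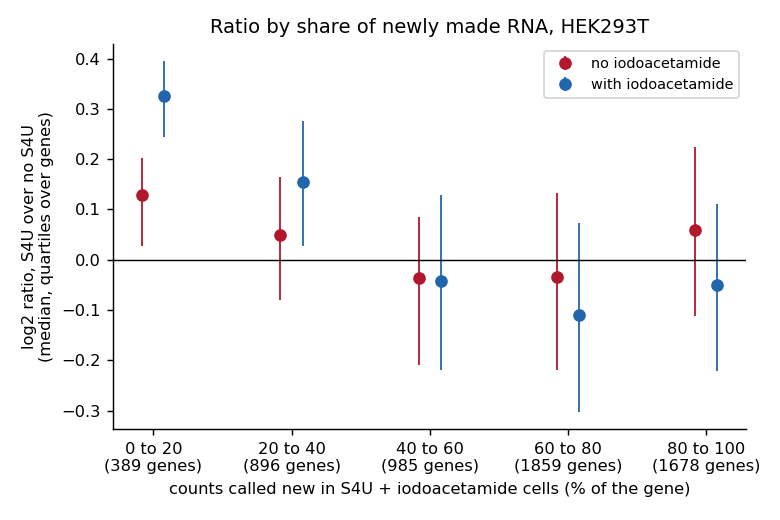
Median log2 ratio of CPM, S4U over no S4U, of HEK293T genes binned by the share of their counts called new in S4U cells with iodoacetamide (x axis, percent). Red is the pair without iodoacetamide and blue the pair with it, and bars run between the quartiles over genes. The medians without iodoacetamide run from −0.037 to 0.13 and those with it from −0.11 to 0.33.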

How the data were processed

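Single cells of a HEK293T and NIH/3T3 mixture were measured by sci-fate. The deposited matrices hold whole-number counts per gene and cell, not normalized, for all RNA and for RNA the authors called new. Species, group and the read counts on introns and exons are in the deposited cell annotation, which also gives a fraction of new RNA per cell that was not used here. The submitters' processing notes list the builds hg19 and mm10 and the tools Picard 1.105, SAMtools 1.3, STAR 2.5.2b and Trim Galore 0.4.1. The sources used here say nothing of duplicate removal, strand use or doublets.

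Counts on human genes were summed over the cells of each group and divided by the group's human total, which gives CPM. Mitochondrially encoded genes are listed at 0 in all human cells and played no part. Intervals are exact (Clopper-Pearson) 95% binomial intervals, and for ratios the conditional form. They cover counting error only, with 1 culture a group. Genes needed at least 100 counts in both groups together, and a 1.5-fold ratio counted as a difference. No doublet caller was run; 1 alternative left out the deepest 5% of cells of each group. Shares of cells holding a gene were taken after thinning to 3000 counts. Named genes are the 15 highest and 15 lowest ratios among genes with at least 300 counts, and of each list the 2 members with the most counts, the highest and the lowest, all members of any list with at most 5 detected, and list members past the fold or set beside them, which were added after their values were seen. Members and lists were chosen with earlier results of these data known. Neighbours and transcript lengths come from GENCODE release 29, a later build than the files use, so no coordinates are printed; 10884 of 11041 genes matched. Alternatives changed the scaling (edgeR 4.0.16 TMM, DESeq2 1.42.0 size factors, no test), cell weights, depth, filters, pseudocount and fold. The ratio step was tested on simulated data. Python 3.11.15 with numpy 2.4.6, pandas 2.3.3 and scipy 1.17.1, and R 4.3.3, were used.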

Additional observations from a re-analysis of the deposited data

Results flagged for a closer look

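The annotation gives no labelling group to 100 cells of the mixture, of which 54 were called human, and these cells are in no comparison. Of their 21802 human counts, 4088 were in the matrix of newly made RNA, which is 18.8% (95% interval 18.2 to 19.3%). This drew attention because the share lies above the 0.888% of cells without S4U. It also lies below the 54.7% of S4U cells with iodoacetamide.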

How the results depend on the processing

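The main counts were 408 genes higher with S4U and 423 lower, of 11041. Either or both of these counts moved by over 1.5 times under 5 settings. Thinning, the count filters and leaving out overlapping genes also changed the number of genes tested, so these moves are not moves in shares. Thinning each cell to 3000 counts gave 203 higher and 279 lower of 7082 genes. A filter of 300 counts gave 129 and 194 of 7945, and one of 20 counts 1407 and 1037 of 15151. A 2-fold limit gave 111 higher and 35 lower. Leaving out genes that overlap another tested gene, chosen after seeing the data, gave 236 higher and 338 lower of 7713. TMM scaling (313 and 610) and size factors (323 and 573) made the higher genes 33.9% and 36.0% of those past the fold, against 49.1% by totals, and put the median of all genes at −0.054 and −0.047. Equal weight per cell (439 and 465), leaving out the deepest cells (393 and 405), a pseudocount of 1 CPM (371 and 369) and protein-coding genes alone (293 and 389, also chosen after seeing the data) stayed within 1.5 times. No named gene past the fold changed sign, and all 15 highest and 15 lowest genes stayed past 1.5-fold under each scaling, weighting, depth and pseudocount setting. Those genes were picked for extreme ratios in the same counts. Of 65 genes past the fold, the 30 with extreme ratios and the list members, 58 stayed past it after thinning, 58 with equal weights, 63 without the deepest cells and 64 with TMM, size factors or the pseudocount. Beside those named above, thinning took PRIM1 to −0.43 and GSTM3 to 0.52, and leaving out the deepest cells took RRP9 to −0.55. The cause of these shifts was not tested. No paired analysis was possible because each group was 1 culture. At these depths intervals of genes near 100 counts are wide, so ratios near 1.5-fold there are uncertain.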

Other observations

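Genes named ZNF or ZFP, mostly zinc finger transcription factors, were grouped after their values had been seen. Of 317 measured, 43 were at least 1.5-fold higher with S4U (13.6%) and 3 lower (0.946%), and the median log2 ratio was 0.25, against 3.7% higher, 3.83% lower and a median of 0.012 over all genes. With iodoacetamide 33 were higher and 4 lower, against 3.23% and 5.44% of all genes, and the median was 0.24. Without iodoacetamide, beside the same 3.7% and 3.83%, among 245 antisense transcripts 38 were higher and 8 lower, among 220 long intergenic noncoding RNAs 32 higher and 18 lower, and among 150 pseudogenes 20 higher and 1 lower.

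Several lists of stress and signalling genes held few or no members past the fold. Of 22 unfolded protein response and chaperone genes 1 was lower, SDF2L1 (log2 ratio −0.60, but −0.049 after thinning), and none of 8 measured interferon response genes, 29 actin and SRF target genes, 41 splicing factors or 28 RNA decay genes passed it, near or below the 3.7% and 3.83% of all genes. After thinning 2 actin and SRF target genes and 2 RNA decay genes were lower, and with equal weights 1 interferon response gene was higher. Of 25 DNA damage genes BRCA1 was lower, at 170 CPM with S4U and 266 CPM without (−0.65, but −0.46 after thinning and −0.58 with equal weights), with 2 lower under TMM or size factors. Of 19 NRF2 targets GSTM3 was higher (0.65) and SLC7A11 lower, with 2 lower under TMM or size factors. Of 29 lipid synthesis genes STARD4 was lower (−0.91), with 3 lower under TMM or size factors, of 19 glycolysis genes PFKP (−0.66, with 2 lower under TMM), and of 21 apoptosis genes BCL2 (−0.62).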
